A study of Homo sapiens with 6 samples.

Results

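The TRIM (tripartite motif) genes were followed in A549, a human lung epithelial cancer cell line, after transfection with a plasmid for the mitochondrial DNA-packaging protein TFAM. Every protein-coding gene whose symbol is TRIM, a number and at most 1 letter was taken, which gave 59 genes on 17 chromosomes out of 29845 genes in the table of read counts. That table holds only genes with at least 1 read. Polyadenylated RNA was sequenced in 3 libraries of cells given the empty pIRES-hrGFP-1a vector (control) and 3 of cells given the same vector with FLAG-tagged TFAM (TFAM-OE). Both groups had therefore received a plasmid by lipofection, and neither is an untransfected culture. The study's text calls the 3 libraries of a group biological replicates. In bulk RNA, fewer expressing cells and less RNA per cell cannot be told apart.

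TRIM proteins are mostly ubiquitin E3 ligases. They carry a RING finger that recruits the ubiquitin-conjugating E2 enzyme, 1 or more B-boxes, a coiled coil through which they pair, and a C-terminal part that differs between members and often binds the target. Some are induced by interferon and act in antiviral defence, by attacking viral particles or by tagging the sensors and adaptors that detect viral RNA and DNA, while others serve in transcription, the cytoskeleton or muscle.

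The libraries held between 26650854 and 37321956 counted reads. TFAM itself was 72.9 ± 2.97 CPM in the control libraries and 77.3 ± 5.58 CPM in the others (SD, n = 3 each). CPM is the read count scaled to library depth by the TMM method. The log2 fold change was 0.08 (SE, the standard error, 0.096, edgeR adjusted p = 0.623), so the overexpressed group is named here by its label. For the protein, the paper reports a western blot against the FLAG tag as its evidence of overexpression. The keratin genes KRT8, KRT18 and KRT19 lay between 79.97 and 743.05 FPKM, and AKR1B10 and ALDH1A1, both abundant in A549 cells, between 624.89 and 1147.64 FPKM. The epithelial markers EPCAM and CDH1 stayed at or under 1.48 FPKM, PTPRC of blood cells had 1 read over the 6 libraries together, COL1A1 of fibroblasts lay at or under 0.63 FPKM, and PECAM1 of endothelium and SFTPC of alveolar cells were at or under 0.09 FPKM. Of the markers, ALDH3A1 alone passed the test (log2 fold change 0.59, edgeR adjusted p = 0.013). AKR1C1, another marker of A549 cells, lay between 74.83 and 143.45 FPKM and just missed the threshold in the other direction (log2 fold change -0.52, edgeR adjusted p = 0.053).

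Of the 59 TRIM genes, 46 had enough reads to be tested, and 13 did not. Per length, TRIM28 had the highest level, with a mean of 225 FPKM over the 6 libraries. TRIM16L followed at 103 FPKM, TRIM47 at 62.3 FPKM, TRIM16 at 47.9 FPKM and TRIM25 at 42.6 FPKM. A mean over 1 FPKM was reached by 35 members and a mean over 10 FPKM by 12. The members together took between 0.317% and 0.326% of all reads in the control libraries and between 0.283% and 0.299% in TFAM-OE, ranges that do not overlap.

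In TFAM-OE, 9 of the 46 tested TRIM genes fell and 0 rose at an adjusted p under 0.05 (edgeR's quasi-likelihood test, adjusted over all 16555 genes tested). The 9 are TRIM22, TRIM5, TRIM14, TRIM21, TRIM25, TRIM69, TRIM38, TRIM52 and TRIM26, in order of p. They make up 19.6% of the tested members, while 4.81% of all genes tested were lower and 3.48% were higher by the same rule. At an unadjusted p under 0.05, 10 members were lower and 5 higher, beside 2191 and 2017 of the 16555 genes tested. DESeq2 called 9 members lower and 1 higher after adjustment, beside 1105 and 932 of the same genes. With a fold change of at least 2 also required, which is the study's cut-off, TRIM22 and TRIM14 were lower, 4.35% of the tested members, beside 2.07% of all genes tested, and 0 members were higher (1 by DESeq2), beside 0.447%. The median log2 fold change was -0.10 over the tested members and -0.01 over all genes tested.

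**Figure D1:**
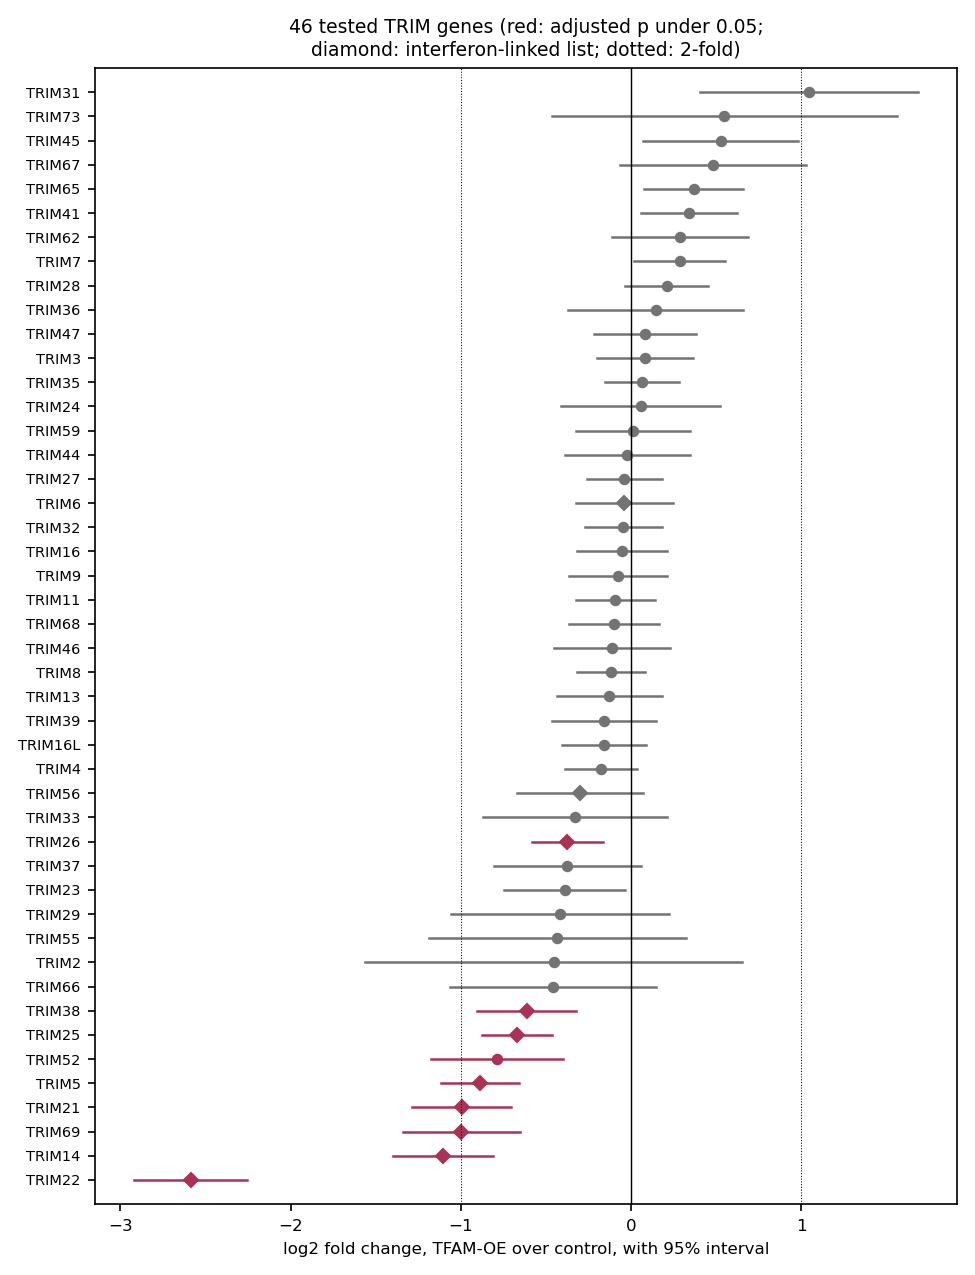
Log2 fold change of TFAM-OE over control (horizontal axis) for each of the 46 tested TRIM genes, with a 95% interval computed from edgeR's test statistic. Red marks the 9 genes with an adjusted p under 0.05, diamonds mark the interferon-linked list and dotted lines mark 2-fold; TRIM22 lies farthest to the left at -2.59 and TRIM31 farthest to the right at 1.05.

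TRIM22, an interferon-induced ligase that restricts the transcription of several viruses, showed the largest fall of the family. It is on chromosome 11 (GRCh38, 5689610 to 5737089, plus strand), and its level was 28.3, 30.1 and 25.2 CPM in the control libraries and 5.42, 4.10 and 4.40 CPM in TFAM-OE. All 3 TFAM-OE libraries lay far under every control library. The means of 27.9 ± 2.49 and 4.64 ± 0.696 CPM (SD, n = 3 each) gave a log2 fold change of -2.59 (SE 0.15, edgeR adjusted p = 1.8e-05), a level 6.01-fold lower. It rested on 806 to 952 reads per control library and 132 to 173 per TFAM-OE library.

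TRIM14 has no RING finger and sits on mitochondria as an adaptor beside MAVS, the protein that relays the detection of viral RNA. Its gene (chromosome 9, 98069275 to 98119222, minus strand) was at 117, 152 and 152 CPM in the control and 73.3, 63.7 and 58.9 CPM in TFAM-OE. The groups did not overlap, and the control library of replicate 1 lay nearest to the TFAM-OE values. The log2 fold change was -1.10 (SE 0.13, edgeR adjusted p = 0.0014). The oppositely oriented gene NANS shares 7.70% of TRIM14's exon bases in GENCODE 44 and had a log2 fold change of 0.32 (edgeR adjusted p = 0.122).

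TRIM21, the cytosolic antibody receptor that sends antibody-coated viruses to the proteasome, stood just short of the 2-fold cut-off. Its gene (chromosome 11, 4384897 to 4393702, minus strand) was at 73.1, 83.6 and 80.4 CPM in the control and 46.1, 39.9 and 32.9 CPM in TFAM-OE, with no overlap. The log2 fold change was -0.99 (SE 0.13, edgeR adjusted p = 0.0024). TRIM69, an antiviral ligase (chromosome 15, 44728988 to 44767829, plus strand), was at 8.004, 10.5 and 9.98 CPM in the control and 5.05, 4.32 and 4.89 CPM in TFAM-OE, again with no overlap. Its log2 fold change was -0.996 (SE 0.15, edgeR adjusted p = 0.0055), and on the linear scale both genes were 1.99-fold lower, just outside the cut-off, whereas TRIM14 at 2.15-fold lay just inside it. Both TRIM21 and TRIM69 were past 2-fold when reads were scaled by library size alone.

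TRIM5, which binds and breaks down incoming retroviral capsids, and TRIM25, the ligase that activates the RNA sensor RIG-I, fell by less. TRIM5 (chromosome 11, 5663195 to 5938619, minus strand) was at 43.7, 41.0 and 41.2 CPM in the control and 22.1, 21.9 and 24.2 CPM in TFAM-OE. The 3 libraries of each group lay close together, and the log2 fold change was -0.89 (SE 0.10, edgeR adjusted p = 0.0012). TRIM25 (chromosome 17, 56836387 to 56914080, minus strand), the fifth in FPKM among all members, was at 329, 358 and 373 CPM in the control and 224, 228 and 215 CPM in TFAM-OE. It too had no overlap between the groups, with a log2 fold change of -0.67 (SE 0.092, edgeR adjusted p = 0.0031).

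These 6 genes (TRIM22, TRIM5, TRIM14, TRIM21, TRIM25 and TRIM69) stayed past the threshold under all 18 other settings tried, each library left out in turn included. The next 3 did not. TRIM38, which restrains signalling from Toll-like receptors (chromosome 6, 25962802 to 25991231, plus strand), was at 21.5, 22.7 and 19.0 CPM in the control and 14.9, 12.2 and 14.2 CPM in TFAM-OE, a log2 fold change of -0.61 (SE 0.13, edgeR adjusted p = 0.021). TRIM26, reported to act on the interferon regulator IRF3 (chromosome 6, 30184455 to 30213427, minus strand), was at 70.7, 74.3 and 73.3 CPM in the control and 60.6, 54.6 and 53.4 CPM in TFAM-OE, a log2 fold change of -0.37 (SE 0.095, edgeR adjusted p = 0.042). TRIM52, whose RING finger is unusually long (chromosome 5, 181254077 to 181261150, minus strand), was at 11.04, 9.74 and 8.51 CPM in the control and 4.48, 6.30 and 6.19 CPM in TFAM-OE, a log2 fold change of -0.79 (SE 0.17, edgeR adjusted p = 0.025). In all 3 genes the groups did not overlap. Without control replicate 1, control replicate 2 or TFAM-OE replicate 2, each of the 3 calls was lost: the adjusted p lay between 0.105 and 0.134 for TRIM38, between 0.077 and 0.127 for TRIM52 and between 0.123 and 0.207 for TRIM26, which also lost its call without control replicate 3 (0.095; all by edgeR). TRIM52 shares 27.6% of its exon bases with CTC-338M12.4, a noncoding RNA gene of the other strand that also fell, with a log2 fold change of -0.74 (edgeR adjusted p = 0.022). The library kit keeps strand, but no source used here says whether the counting did, so the reads of the 2 genes may not be apart.

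**Figure D2:**
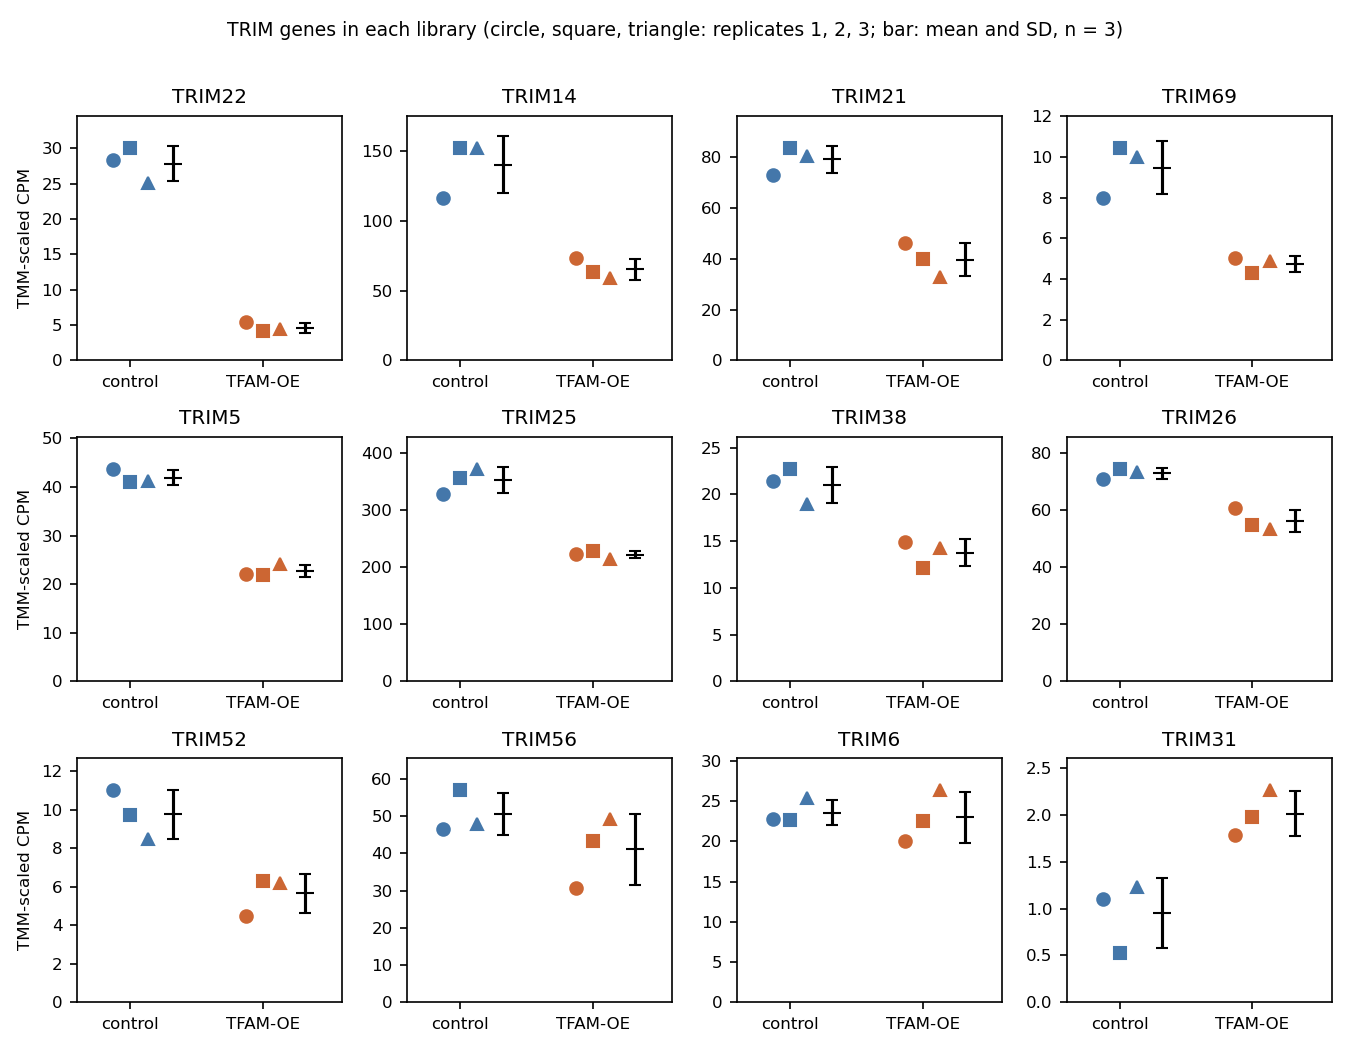
TMM-scaled CPM (vertical axes, from 0) in each library for the 9 TRIM genes that fell and for TRIM56, TRIM6 and TRIM31. Circles, squares and triangles are replicates 1, 2 and 3, blue is control and orange is TFAM-OE, and the bar is the mean with its SD (n = 3); the groups overlap for TRIM56 and TRIM6 and for no other gene shown.

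Of 11 TRIM genes listed as known to be induced by interferon or to act in antiviral sensing, 10 were tested, and 8 of these fell. That is 80% of those tested, beside 4.81% of all genes tested, with a median log2 fold change of -0.78 over the 10. The list was written with results of these libraries already known, so its count is a description. Of the 36 tested members outside it, TRIM52 alone fell at an adjusted p under 0.05, and their median log2 fold change was -0.05. The summed FPKM of the listed genes was 154.8, 166.9 and 162.7 in the control libraries and 91.8, 90.8 and 93.1 in TFAM-OE. That sum was between 21.2% and 22.2% of the whole family's FPKM in the control and between 12.8% and 14.1% in TFAM-OE.

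Both listed genes that did not pass had groups that overlap. TRIM56, a ligase linked to the DNA-sensing adaptor STING (chromosome 7, 101085481 to 101097967, plus strand), was at 46.6, 57.0 and 47.9 CPM in the control and 30.6, 43.2 and 49.2 CPM in TFAM-OE. Its TFAM-OE libraries were wide apart, and the log2 fold change of -0.30 (SE 0.17, edgeR adjusted p = 0.289) passed only without TFAM-OE replicate 3 (edgeR adjusted p = 0.045). TRIM6, which makes free ubiquitin chains for the kinase IKBKE, was at 22.8, 22.6 and 25.3 CPM in the control and 20.0, 22.5 and 26.4 CPM in TFAM-OE. Its 95% interval ran from -0.32 to 0.25 around a log2 fold change of -0.04 (edgeR adjusted p = 0.883), so a 2-fold fall lies outside it. TRIM6 shares 29.2% of its exon bases with TRIM6-TRIM34, a gene of the same strand that fell. How shared reads were assigned is not known, so this value is uncertain.

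The 11th listed gene, TRIM34, was counted with 1 read in total. GENCODE 44 also holds a readthrough gene, TRIM6-TRIM34, whose exons cover 2233 of the 2672 exon bases of TRIM34 (83.6%) and 29.2% of those of TRIM6. The readthrough gene does not meet the symbol rule and is no member, but it was counted with 698, 586 and 865 reads in the control and 409, 437 and 324 in TFAM-OE. It fell from 22.1 ± 1.42 to 11.9 ± 1.02 CPM (SD, n = 3 each), a log2 fold change of -0.89 (SE 0.12, edgeR adjusted p = 0.0030), and passed under all 18 other settings. The counts do not say how many of these reads came from TRIM34 itself.

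The sequence before the gene start was read for the members that fell, since several of these genes are textbook interferon targets. The interferon-stimulated response element has the core GAAANNGAAA, which was searched on both strands with overlapping matches allowed. The 6 windows below run from 250 bases before to 50 bases after the start (RefSeq, GRCh38.p14), 5′ to 3′ along the gene, with the matching bases in capitals. The starts are those of RefSeq transcripts, and for TRIM5, TRIM69, TRIM34 and TRIM26 they lie inside the GENCODE 44 gene span and not at its end. They are shown because they hold the match in a member that fell or, for TRIM34, in the member whose exons the readthrough gene mostly covers.
TRIM14, chr9:98119173-98119472, minus strand: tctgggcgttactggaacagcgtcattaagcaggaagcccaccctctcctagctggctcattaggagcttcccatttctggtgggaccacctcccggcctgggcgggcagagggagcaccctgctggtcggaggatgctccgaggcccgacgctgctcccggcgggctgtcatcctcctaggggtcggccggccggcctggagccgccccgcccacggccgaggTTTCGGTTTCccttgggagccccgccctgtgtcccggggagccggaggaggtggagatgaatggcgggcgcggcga
TRIM5, chr11:5685025-5685324, minus strand: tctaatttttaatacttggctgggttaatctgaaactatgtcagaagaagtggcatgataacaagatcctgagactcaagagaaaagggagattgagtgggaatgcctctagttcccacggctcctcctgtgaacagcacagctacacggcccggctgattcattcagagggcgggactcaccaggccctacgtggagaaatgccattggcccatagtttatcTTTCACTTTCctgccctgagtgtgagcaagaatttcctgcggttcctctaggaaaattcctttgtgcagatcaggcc
TRIM69, chr15:44736278-44736577, plus strand: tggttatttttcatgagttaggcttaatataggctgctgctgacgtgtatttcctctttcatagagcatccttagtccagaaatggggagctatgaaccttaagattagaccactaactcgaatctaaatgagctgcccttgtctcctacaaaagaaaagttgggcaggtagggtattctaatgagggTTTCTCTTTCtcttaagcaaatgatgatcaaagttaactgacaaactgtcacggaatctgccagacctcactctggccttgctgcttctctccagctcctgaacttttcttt
TRIM21, chr11:4393653-4393952, minus strand: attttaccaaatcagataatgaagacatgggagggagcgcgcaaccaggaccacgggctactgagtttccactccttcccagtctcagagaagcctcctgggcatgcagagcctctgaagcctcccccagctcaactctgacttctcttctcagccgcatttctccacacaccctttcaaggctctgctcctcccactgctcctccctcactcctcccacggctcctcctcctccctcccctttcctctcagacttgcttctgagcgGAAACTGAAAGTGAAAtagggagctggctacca
TRIM26, chr6:30213357-30213656, minus strand: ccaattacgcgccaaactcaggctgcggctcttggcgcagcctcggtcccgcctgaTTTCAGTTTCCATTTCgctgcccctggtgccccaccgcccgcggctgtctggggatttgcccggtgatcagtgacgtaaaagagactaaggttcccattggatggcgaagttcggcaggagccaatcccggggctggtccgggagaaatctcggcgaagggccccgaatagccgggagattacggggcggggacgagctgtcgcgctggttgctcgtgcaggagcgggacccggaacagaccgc
TRIM34, chr11:5624751-5625050, plus strand: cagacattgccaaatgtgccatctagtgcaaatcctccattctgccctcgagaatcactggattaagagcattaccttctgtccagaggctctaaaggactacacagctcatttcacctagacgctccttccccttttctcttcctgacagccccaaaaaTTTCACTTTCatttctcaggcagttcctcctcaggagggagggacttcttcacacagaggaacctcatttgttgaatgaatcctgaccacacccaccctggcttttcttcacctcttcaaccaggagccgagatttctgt

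A match was found in the windows of 5 of the 8 members that fell and have an entry, namely TRIM5, TRIM14, TRIM21, TRIM26 and TRIM69. It begins 26 bases before the start in TRIM14, 27 before it in TRIM5 and 62 before it in TRIM69. In TRIM21 a pair of overlapping matches begins 17 and 23 bases after the start, and in TRIM26 such a pair begins 194 and 188 bases before it. The windows of TRIM25, TRIM38 and TRIM52 hold no match, and TRIM22 has no entry in the promoter table used here. Of the 25 tested members with an entry that did not fall, TRIM2, TRIM16 and TRIM44 hold a match (12.0%), as do TRIM34 and TRIM64C of the 13 members not tested. Over all genes with a window, 4.38% hold it. Among protein-coding genes tested, the share was 16.4% of the 500 that fell and 3.42% of the 9578 that did not. A match in these letters is a description of the sequence and not a bound site.

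Several members lie on the same part of a chromosome, and not all of them moved together. On chromosome 11, between the start of TRIM21 (4384897) and the end of TRIM3 (6474459), the order of the members runs TRIM21, TRIM68, TRIM6, TRIM34, TRIM5, TRIM22 and TRIM3. TRIM21, TRIM5 and TRIM22 fell, while the log2 fold changes of TRIM68, TRIM6 and TRIM3 were -0.10, -0.04 and 0.08 (edgeR adjusted p = 0.647, 0.883 and 0.727). The readthrough gene TRIM6-TRIM34, which comes before TRIM5 and TRIM22 in this order, fell as they did (log2 fold change -0.89, edgeR adjusted p = 0.0030). By the GENCODE span, TRIM22 lies inside TRIM5 on the other strand, yet they share no exon bases in that annotation. The RefSeq window around the TRIM5 start (5685025 to 5685324, minus strand) lies below the start of TRIM22 (5689610). By that start TRIM5 does not enclose TRIM22. On chromosome 6, TRIM38 and TRIM26 fell, TRIM27, TRIM31 and TRIM39 did not pass, and TRIM10 and TRIM15 had 1 and 7 reads in total.

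TRIM31, a ligase of the gut and airway epithelium reported to act on MAVS and on the inflammasome protein NLRP3, had the highest log2 fold change. It was at 1.10, 0.523 and 1.23 CPM in the control and 1.79, 1.98 and 2.26 CPM in TFAM-OE, from 14 to 45 reads per control library and 57 to 72 per TFAM-OE library. The groups did not overlap, and the control library of replicate 2 was the lowest. The log2 fold change of 1.05 (SE 0.29) fell just outside the threshold (edgeR adjusted p = 0.0515), and it passed in 7 of the 17 other settings that tested it. In order of p, the next members were TRIM65, an activator of the RNA sensor IFIH1 (log2 fold change 0.37, edgeR adjusted p = 0.109), and TRIM41 (0.34, edgeR adjusted p = 0.125).

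By the simpler count of groups that do not overlap, 12 tested members were lower and 6 higher. Over all genes tested the share was 15.8% lower and 15.8% higher, and in the family 26.1% and 13.04%. The lower members are the 9 above with TRIM4, TRIM8 and TRIM23, and the higher ones are TRIM7, TRIM31, TRIM41, TRIM45, TRIM65 and TRIM67. TRIM8 shows how small such a gap can be, at 78.5 ± 2.02 CPM in the control and 72.4 ± 2.80 CPM in TFAM-OE (SD, n = 3 each). Of the 37 tested members that did not pass, 30 had a 95% interval of the fold change that lies within 2-fold either way.

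**Figure D3:**
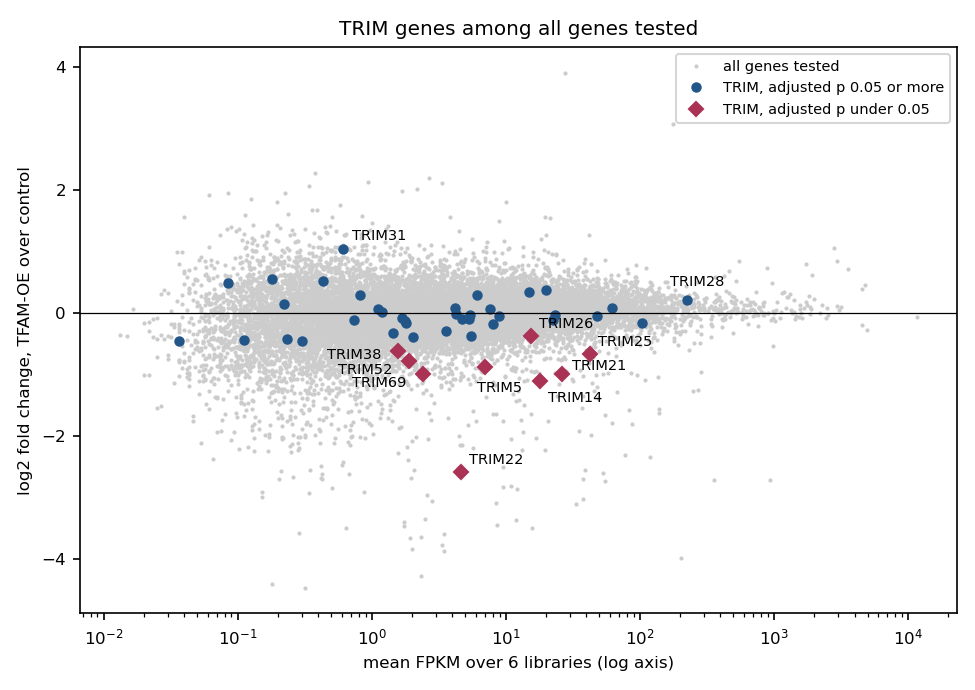
Mean FPKM over the 6 libraries (horizontal log axis) against the log2 fold change of TFAM-OE over control (vertical axis) for all genes tested (grey), the 37 TRIM genes that did not pass (blue circles) and the 9 that fell (red diamonds). The genes that fell have means from 1.57 FPKM (TRIM38) to 42.6 FPKM (TRIM25), and TRIM28, the most abundant member, lies at 225 FPKM and a log2 fold change of 0.21.

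The most abundant members did not pass, apart from TRIM25. TRIM28, the corepressor that KRAB zinc finger proteins recruit to silence chromatin, was at 675, 754 and 765 CPM in the control and 929, 857 and 754 CPM in TFAM-OE. In CPM the groups overlap, with a log2 fold change of 0.21 (SE 0.11, edgeR adjusted p = 0.257). In FPKM they did not, at 200.65, 216.13 and 215.69 in the control and 251.55, 241.26 and 226.51 in TFAM-OE. TRIM28 took between 27.4% and 28.7% of the family's FPKM in the control and between 34.3% and 35.0% in TFAM-OE. The family's sum itself was lower in TFAM-OE, between 660.73 and 719.41 FPKM, beside 731.21 to 753.01 in the control. Of 6 genes that work with TRIM28 (SETDB1, ATF7IP, CHD3, CBX1, CBX3 and CBX5), 0 were lower and 0 higher by edgeR and by DESeq2. At an unadjusted p under 0.05, 1 was higher (CBX1, edgeR adjusted p = 0.099), beside 2017 of the 16555 genes tested. The log2 fold changes of TRIM16L, TRIM47 and TRIM16 were -0.16, 0.08 and -0.05 (edgeR adjusted p = 0.399, 0.742 and 0.817). TRIM16 and TRIM16L are similar copies, and TRIM16 also shares 23.5% of its exon bases with RP11-385D13.1 of the same strand, so their levels are uncertain. So is that of TRIM47, which shares 51.6% of its exon bases with RP11-552F3.9 of the other strand.

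By the C-terminal part, 7 of the 9 genes that fell belong to the SPRY class, whose fold binds ligands such as antibodies and viral capsids. Of 19 tested SPRY members, 7 fell, 12 did not pass and 0 rose, by edgeR and by DESeq2. At an unadjusted p under 0.05, 3 were higher, beside 2017 of the 16555 genes tested. The 7 are 36.8% of the tested class, beside 4.81% of all genes tested by edgeR. All 7 are also on the interferon-linked list, and no tested SPRY member outside that list fell. TRIM14, with a SPRY domain but no RING, was the 1 that fell of 6 tested members without a RING, and TRIM52 the 1 of 5 with no C-terminal domain. No change passed in the 4 tested members with COS, fibronectin and SPRY domains (TRIM9, TRIM36, TRIM46 and TRIM67, linked to microtubules), the 3 transcription regulators with a PHD finger and bromodomain (TRIM24, TRIM28 and TRIM33) or the 3 tested members with NHL repeats (TRIM2, TRIM3 and TRIM32). In these classes 0 genes had an unadjusted p under 0.05 by edgeR and 0 an adjusted p under 0.05 by DESeq2.

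**Figure D4:**
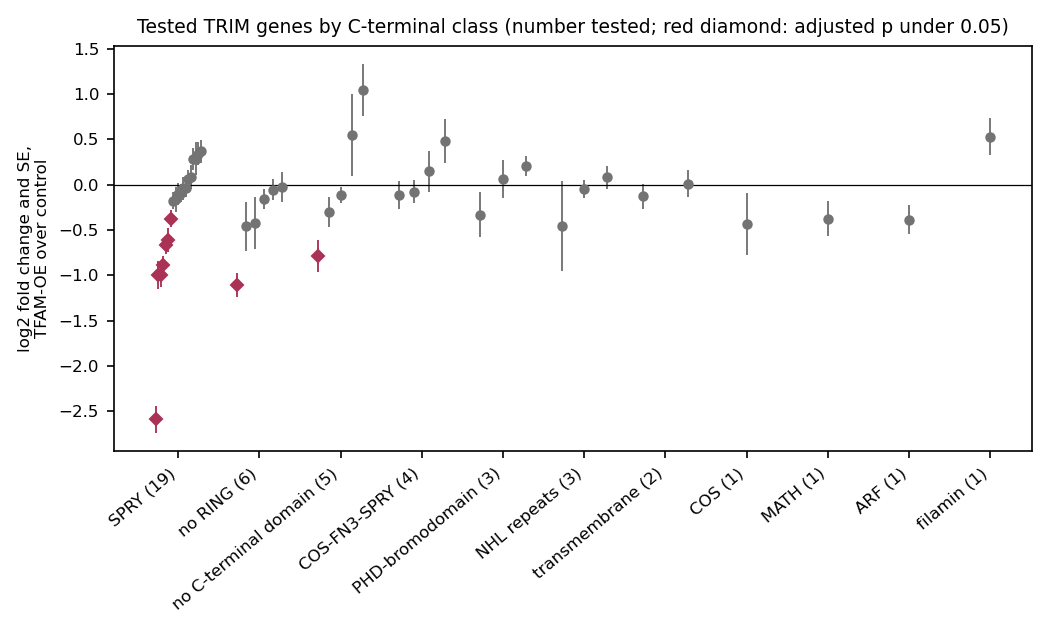
Log2 fold change of TFAM-OE over control with its standard error (vertical axis) for the 46 tested TRIM genes, placed by the class of their C-terminal part, with the number tested in parentheses. Red diamonds are the 9 genes with an adjusted p under 0.05; 7 are in the SPRY class, and the members without a RING and without a C-terminal domain hold 1 each.

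The TFAM-OE libraries differed from each other more than the control libraries did. The median coefficient of variation over the tested members was 8.30% in the control and 12.3% in TFAM-OE, beside 10.04% and 13.5% over all genes tested. TRIM44, which has no RING, was at 63.4, 66.5 and 65.6 CPM in the control and 47.6, 63.9 and 81.3 CPM in TFAM-OE. TRIM33, a regulator of SMAD signalling, was at 16.7, 16.6 and 13.8 CPM in the control and 7.81, 12.2 and 17.5 CPM in TFAM-OE. In both genes TFAM-OE replicates 1 and 3 stood on opposite sides of the control values. Without TFAM-OE replicate 3, 14 of the 46 tested members were lower and 4 higher at an adjusted p under 0.05. The 5 added lower were TRIM23, TRIM33, TRIM37, TRIM56 and TRIM66, and the 4 higher were TRIM7, TRIM31, TRIM41 and TRIM65. Over all 16555 genes tested, 1782 were then lower and 1416 higher, where all 6 libraries gave 796 and 576, so calls rose in both directions outside the family too. Without TFAM-OE replicate 1, 9 members were lower and 1 higher, beside 979 and 739 of the 16555 genes tested. Within the TFAM-OE group, replicate 1 was the highest library for 24 tested members and the lowest for 19, replicate 3 for 16 and 17, and replicate 2 for 6 and 10. Over all genes the shares were 43.5% and 38.0% for replicate 1, 39.2% and 44.3% for replicate 3, and 17.3% and 17.7% for replicate 2.

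The 13 members not tested had between 1 and 22 reads in total over the 6 libraries. TRIM10, TRIM34, TRIM63, TRIM64C, TRIM71 and TRIM77 had 1 read each. TRIM58 had 5, TRIM15 and TRIM17 had 7 each, TRIM72 had 13, TRIM54 had 14, TRIM61 had 21 and TRIM74 had 22. The muscle ligase TRIM63 and its relative TRIM54 are among them. TRIM74 is a near-identical copy of TRIM73, which was tested on 10 to 30 reads per library (log2 fold change 0.55, SE 0.45, edgeR adjusted p = 0.483), and since only uniquely mapped reads were counted, neither value is certain. A difference in these genes was not detectable at this depth. Of the tested members, 43 were over the read cut in all 6 libraries. TRIM55 and TRIM73 were over it in 3 control and 2 TFAM-OE libraries, and TRIM2 in 3 and 1.

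Genes related to the family in other ways were counted with the same test. Of 65 tested RNF genes, a second large set of RING proteins, 4 fell (6.15%) and 3 rose (4.62%), 0 of them by 2-fold, near the shares of all genes tested (4.81% and 3.48%), with a median log2 fold change of -0.08. Of 5 tested genes with the TRIM domain plan but another symbol, PML, the scaffold of nuclear bodies and itself TRIM19, fell from 88.6 ± 1.82 to 42.5 ± 7.63 CPM (SD, n = 3 each; log2 fold change -1.06, SE 0.13, edgeR adjusted p = 0.0016). RNF207 rose, with a log2 fold change of 0.96 (edgeR adjusted p = 0.0094), a call that was lost without TFAM-OE replicate 2, without control replicate 2, with the replicate number as a block and by limma-trend over every gene above 0 FPKM.

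Among 16 tested sensors, adaptors and kinases that TRIM proteins act on, 6 fell by edgeR (37.5%, beside 4.81% of all genes tested). By edgeR 0 rose (3 were higher at an unadjusted p under 0.05, beside 2017 of the 16555 genes tested). By DESeq2 2 rose, beside 932 of the same genes. The 4 past 2-fold were IFIH1 and DDX58, the sensors MDA5 and RIG-I (log2 fold changes -2.20 and -2.04), the transcription factor IRF7 (-1.93) and the RIG-I relative DHX58 (-1.61). DDX58, the target of TRIM25, went from 138 ± 7.99 to 33.6 ± 4.02 CPM (SD, n = 3 each; edgeR adjusted p = 1.8e-05). MAVS, the adaptor beside TRIM14, was at 137 ± 14.7 and 181 ± 18.5 CPM (SD, n = 3 each), a log2 fold change of 0.40 that did not pass (edgeR adjusted p = 0.061). Of 18 tested ubiquitin, E1 and E2 genes, UBA7 and UBE2L6 fell (11.1%, beside 4.81% of all genes tested). Their log2 fold changes were -2.02 and -1.79 (edgeR adjusted p = 0.0021 and 9.8e-05). They are the E1 and E2 enzymes of the ubiquitin-like protein ISG15. The E2 enzymes that RING ligases commonly use, such as UBE2D2 and UBE2D3 (log2 fold changes 0.03 and -0.10), did not pass. UBE2N, with which TRIM5 and TRIM25 build chains, had a log2 fold change of 0.32 (edgeR adjusted p = 0.111).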

How the data were processed

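Polyadenylated RNA of A549 cells was sequenced as paired reads from a stranded kit in 3 control and 3 TFAM-OE libraries. The authors trimmed the reads with the FASTX-Toolkit, aligned them to GRCh38 with TopHat2 and counted uniquely mapped reads per gene; the sources used here name neither the counting program nor its annotation or strand setting. They deposited whole-number read counts and FPKM values with 2 decimals for each gene and library. Unused value columns numbered 0.

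Counts were fitted with edgeR (4.0.16, in R 4.3.3) and its quasi-likelihood test, two-sided, TFAM-OE against control, with TMM scaling and Benjamini-Hochberg adjustment over the 16555 genes kept by filterByExpr (above 0.303 CPM, or about 10 reads, in at least 3 libraries). The script was tested on simulated data. CPM values are TMM-scaled, and FPKM values were used as deposited for levels between genes. Exon overlaps and coordinates come from GENCODE 44 (GRCh38), promoter windows from RefSeq (GRCh38.p14), which matched 46 of the 59 members. P-values set the difference between the groups against the spread of libraries within both groups, moderated over all genes tested. The sources do not say whether the cultures of the 3 libraries of a group were independent, beyond calling them biological replicates.

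The members and gene lists were chosen with earlier results of these data known. Named are every member with an adjusted p under 0.05, every tested gene of the interferon-linked list, the 5 members of highest mean FPKM, every member not tested, and of other lists the genes past 0.05 and 2-fold; other genes named were chosen after their values were seen. Alternatives included edgeR's exact test, DESeq2 (1.42.0), limma (3.58.1) as limma-voom and as limma-trend on log2(FPKM + 0.1 or 1), other scalings and filters, replicate numbers as a block and each library left out. Figures were drawn with matplotlib (3.10.9).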

Additional observations from a re-analysis of the deposited data

How the results depend on the processing

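Under the 18 other settings, TRIM22, TRIM5, TRIM14, TRIM21, TRIM25 and TRIM69 stayed lower past the threshold, while TRIM26 and TRIM52 passed in 13 settings and TRIM38 in 12. The count of members lower went from 9 to between 6 and 14 with each library left out, the 14 without TFAM-OE replicate 3, and that of members higher from 0 to between 0 and 4. Higher members numbered 1 by DESeq2, edgeR's exact test, limma-trend on log2(FPKM + 1) and upper-quartile scaling (TRIM31), and 2 with every gene that had a read (TRIM31 and TRIM65). With 2-fold also required, 4 members were lower with library size alone and with a mean of at least 50 reads, and between 2 and 4 with each library left out; 1 was higher by DESeq2, the exact test, every gene with a read and upper-quartile scaling, and between 0 and 1 with each library left out. With a library left out, TRIM6 ranged from -0.15 to 0.049, TRIM47 from -0.0495 to 0.23 and TRIM16 from -0.16 to 0.063 on the log2 scale. The cause of these changes was not tested.

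Over all genes, 796 lower and 576 higher became 293 and 160 by limma-trend on log2(FPKM + 0.1) over every gene above 0, 1236 and 980 by the exact test, 1485 and 1034 with every gene that had a read, 1105 and 932 by DESeq2, 263 and 87 without TFAM-OE replicate 2, 253 and 93 without control replicate 1, 238 and 67 without control replicate 2 and 1782 and 1416 without TFAM-OE replicate 3. The paper does not say whether same-numbered libraries were handled together. Same-numbered libraries had correlations of -0.22, 0.01 and -0.27 in their deviations from the group means. In 0 of the 3 pairs did a library correlate best with its own number. With 3 libraries per group, these correlations cannot settle whether same-numbered libraries share a batch. With the replicate number as a block, 6 members were lower and 0 higher (3 lower past 2-fold), and 285 genes lower and 74 higher over all genes; TRIM38, TRIM52 and TRIM26 then had adjusted p = 0.105, 0.111 and 0.165 by edgeR.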
